A study of Mus musculus with 16 samples.

Results

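The MHC class I and II genes examined here are 10 genes of antigen presentation, H2-K1, H2-D1, B2m, Tap1, Tap2, Cd74, H2-Aa, H2-Ab1, H2-DMa and Cd80. They were taken by gene symbol from a table of 54532 genes, and all 10 were among the 12496 genes that passed the filter on low counts. RNA had been sequenced from microglia, the resident macrophages of nervous tissue, sorted from mouse retinas. The 8 OIR libraries came from pups with oxygen-induced retinopathy, in which a spell of high oxygen is followed by retinal hypoxia and abnormal vessel growth, and the 8 nonOIR libraries from pups without it. All pups, in both groups, carried Cx3cr1CreERT2:Rosa26-tdTomato, received tamoxifen under the skin at postnatal day 1 (5 µl at 21 mg/ml) and were at postnatal day 17. Cells of both groups were sorted as CD45low, CD11b+, Tom+, Ly6C- and Ly6G-. The Cre is driven by Cx3cr1, which is also used by other tissue macrophages, so the reporter alone does not mark microglia. In each group 5 libraries carried the lane code 1 and 3 the lane code 2, and the labels do not say what else differed between these codes. Nothing in the labels ties each library to an animal of its own. The p-values therefore speak only of the spread between these samples, part of which may be technical.

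MHC class I molecules are made of a polymorphic heavy chain and the invariant light chain beta-2 microglobulin, and they show peptides from the cell's own proteins to CD8 T cells. Those peptides are cut by proteasomes and pumped into the endoplasmic reticulum by the TAP transporter. Class II molecules are made of an alpha and a beta chain that travel with the invariant chain Cd74 to the endosome, where H2-DM exchanges the Cd74 remnant for peptide, and they present to CD4 T cells. Resting microglia are known for low class II expression, and interferon-gamma is known to raise both classes. Cd80, a ligand of CD28 and CTLA-4, gives the second signal to T cells.

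Promoter sequences are shown because both classes are known to share control elements, the X and Y boxes. Of the members, H2-K1 and H2-D1 also carry a kappaB site. RefSeq promoters (GRCm38.p6, windows of 300 bases that span the annotated start) were given for 7 of the 10 members. In the short runs that follow, capitals mark an X2 core (TGACG) and a Y box in reverse (ATTGG) a fixed number of bases apart, read 5′ to 3′ along the gene.
H2-K1, chr17:34000359-34000388, minus strand: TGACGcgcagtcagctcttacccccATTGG
H2-D1, chr17:35262993-35263022, plus strand: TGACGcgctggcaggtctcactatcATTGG
B2m, chr2:122147609-122147638, plus strand: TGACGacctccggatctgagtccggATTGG
H2-Aa, chr17:34287867-34287897, minus strand: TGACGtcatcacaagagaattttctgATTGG

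The core and box stood 20 bases apart in H2-K1, H2-D1 and B2m and 21 apart in H2-Aa. Searched on both strands, the spacing of 20 occurred in 31 of 32851 RefSeq promoters (0.0944%) and that of 21 in 23 promoters. The promoters given for Tap1, H2-DMa and Cd80 held neither spacing. The windows of H2-K1 and H2-D1, the classical class I heavy chains, are shown whole, since only H2-K1 passed the test reported further on. Here capitals mark, in order, the kappaB site (the first run), the interferon regulatory factor (IRF) core AANNGAAA on the other strand, the X2 core and the Y box. None of these marked matches overlapped another.
H2-K1, chr17:34000284-34000583, minus strand: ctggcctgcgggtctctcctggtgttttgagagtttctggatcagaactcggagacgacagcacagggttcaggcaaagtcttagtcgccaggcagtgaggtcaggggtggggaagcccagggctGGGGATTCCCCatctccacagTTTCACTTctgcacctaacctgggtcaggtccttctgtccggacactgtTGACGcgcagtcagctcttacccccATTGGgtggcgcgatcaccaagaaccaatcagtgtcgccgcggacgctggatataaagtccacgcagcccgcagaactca
H2-D1, chr17:35262844-35263143, plus strand: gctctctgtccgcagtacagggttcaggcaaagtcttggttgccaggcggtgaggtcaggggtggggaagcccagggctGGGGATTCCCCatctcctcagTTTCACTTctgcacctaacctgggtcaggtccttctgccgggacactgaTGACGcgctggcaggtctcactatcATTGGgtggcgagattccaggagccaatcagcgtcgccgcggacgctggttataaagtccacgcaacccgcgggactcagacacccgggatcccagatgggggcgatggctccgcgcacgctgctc

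Both windows held the same 4 marked elements in the same order. Each also held a further Y box in the other direction (CCAAT), downstream of the marked one and left in lower case. The same kappaB letters, on either strand, occurred in 10 of the 32851 promoters (0.0304%). The IRF core, at 23.9% of promoters, the X2 core alone, at 20.8%, and CCAAT in either direction, at 37.4%, were common. The IRF core was also found in the windows of B2m, H2-Aa and Cd80, in 1 of the 2 windows of H2-DMa and not in that of Tap1. These matches are descriptions of the letters and not evidence of binding.

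Levels are given as CPM, counts set against the TMM-scaled library size. Gene counts summed to 20.8 to 30.0 M (mega-counts) per OIR library and 13.6 to 28.0 M per nonOIR library. In edgeR's quasi-likelihood test, adjusted by the Benjamini-Hochberg method over 12496 genes, 1368 passed at an adjusted p under 0.05 (10.9%), 798 higher in OIR (6.39%) and 570 lower (4.56%). Scaling by library size alone gave 1020 higher and 364 lower. All adjusted p-values below come from this test over all genes unless another is named.

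Among the 10 members, 2 were higher in OIR, 2 were lower and 6 did not pass, against the background of 10.9%. H2-K1 and Cd74 were higher, by 1.29-fold and 1.53-fold. H2-DMa and Cd80 were lower, at 0.763 and 0.573 of the nonOIR level. Both classes therefore held a gene that rose, and the class II pathway held genes that moved both ways. The groups did not overlap in 1 member, H2-DMa, against 2.02% of all genes tested.

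**Figure D1:**
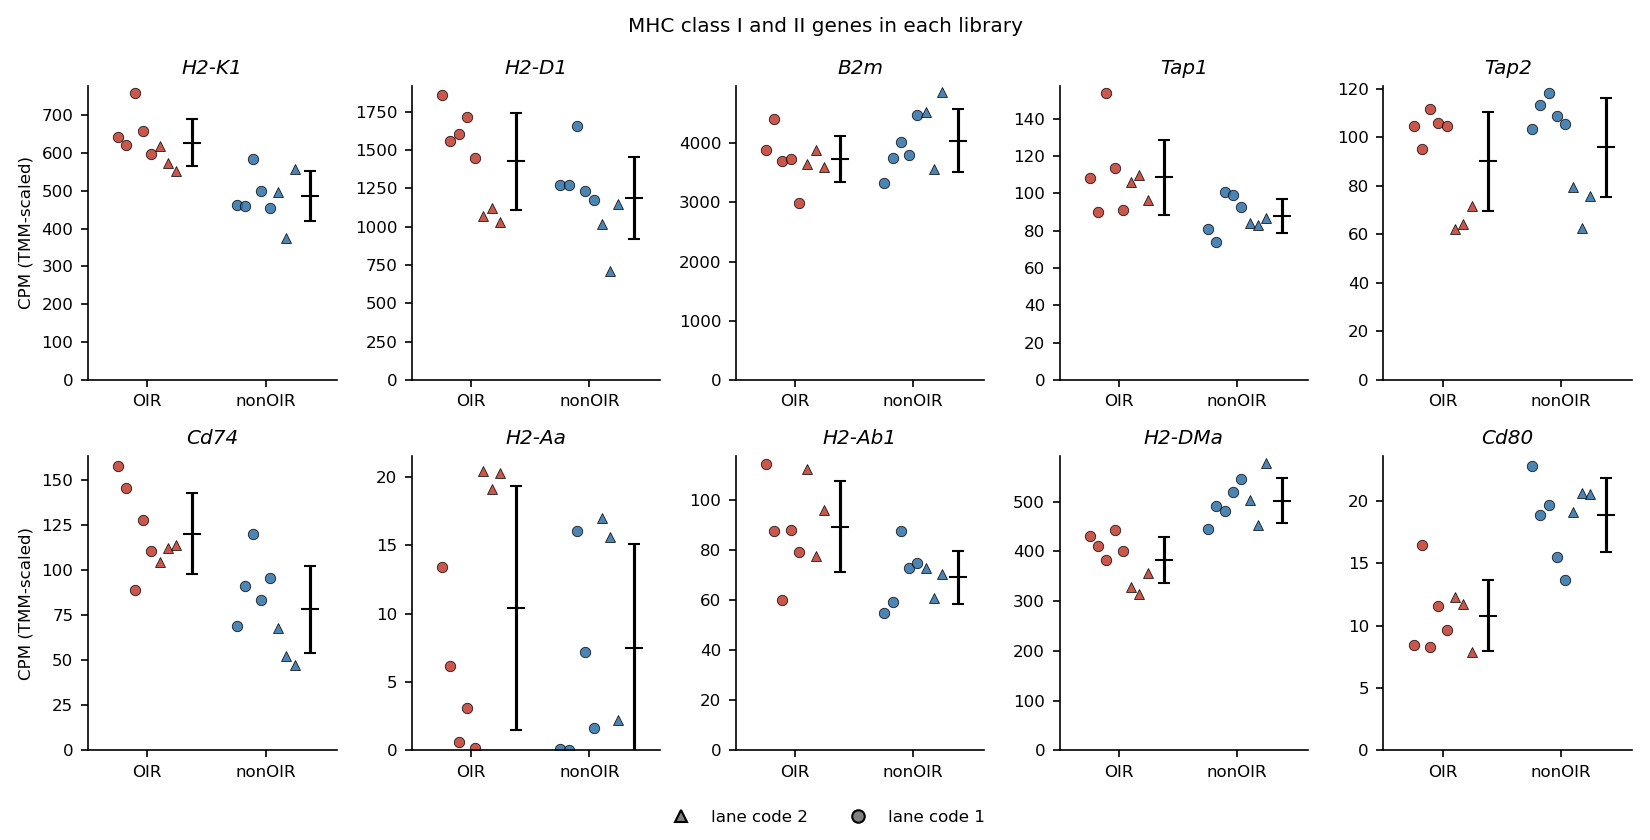
CPM of each member in every library, OIR left of nonOIR in each panel, with the mean and SD of 8 libraries and symbols for the lane code; the lower SD bar of H2-Aa in nonOIR is cut at 0. H2-DMa is the panel in which all OIR libraries lie below all nonOIR libraries, and H2-Aa spans from 0.207 to 20.5 CPM within OIR.

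The class I heavy chains come first. H2-K1, the classical heavy chain of the K locus (ENSMUSG00000061232, chr17:33996017-34000347), ran from 552 through a median of 619 to 758 CPM in OIR libraries, against 374, 479 and 584 CPM in nonOIR libraries. All 8 OIR libraries lay above the nonOIR median and 6 above the highest nonOIR library. The mean was 627 ± 62.9 CPM in OIR and 486 ± 65.5 CPM in nonOIR (SD, n = 8 each), or a log2 change of 0.37 ± 0.088 (SE, edgeR adjusted p = 0.0116). Within lane 2 the log2 fold change was 0.33 (edgeR adjusted p = 0.139), and within lane 1 it was 0.42 (edgeR adjusted p = 0.0205). H2-K1 was thus higher in OIR in both lanes by a similar size and passed in lane 1.

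H2-D1, the classical heavy chain of the D locus, ran from 1027 through 1505 to 1861 CPM in OIR libraries, against 712, 1206 and 1656 CPM in nonOIR libraries. The groups overlapped over most of their range. The means of 1426 ± 317 CPM in OIR and 1186 ± 266 CPM in nonOIR (SD, n = 8 each) gave a log2 fold change of 0.27 ± 0.15 (SE), which did not pass (edgeR adjusted p = 0.292). The spread followed the lane code. The 6 libraries of lane 2 lay between 712 and 1146 CPM and the 10 of lane 1 between 1176.5 and 1861 CPM. With the group kept in the fit, the lane 2 level was 0.689 of the lane 1 level (log2 difference -0.54 ± 0.094 SE, edgeR adjusted p = 0.000361).

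Of 12496 genes, 24.8% differed between the lane codes in that fit, and 4.67% had lanes that did not overlap. Among the members 3 differed between the lanes (H2-D1, Tap2 and Cd74) and 2 had lanes that did not overlap (H2-D1 and Tap2). The ratio of H2-D1 to H2-K1 in CPM stood at 2.26 ± 0.41 in OIR libraries and 2.43 ± 0.375 in nonOIR libraries (SD, n = 8 each). Reads of the heavy chains are uncertain where they match other class I genes: 9.63% of the 50-base runs of H2-K1 and 12.8% of those of H2-D1 also occur in transcripts of other genes. Strand was not marked by the kit, and reads from overlapping genes on opposite strands therefore cannot be told apart.

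B2m, the shared light chain (chr2:122147686-122153083), ran from 2997 through 3716 to 4402 CPM in OIR libraries, against 3329, 3910 and 4872 CPM in nonOIR libraries. The groups overlapped, and the log2 fold change of -0.12 ± 0.088 (SE) did not pass (edgeR adjusted p = 0.451). The mean was 3730 ± 390.0 CPM in OIR and 4041 ± 534 CPM in nonOIR (SD, n = 8 each). B2m ranked 26th of the 12496 genes by mean CPM, H2-D1 80th, H2-K1 221st and H2-DMa 297th.

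Tap1 and Tap2 encode the subunits of the peptide transporter. Tap1 ran from 90.0 through 107 to 154 CPM in OIR libraries, against 74.1, 85.5 and 101 CPM in nonOIR libraries. All 8 OIR libraries lay above the nonOIR median, and the ranges overlapped. The mean was 109 ± 20.2 CPM in OIR and 87.6 ± 9.11 CPM in nonOIR (SD, n = 8 each), with a log2 fold change of 0.31 ± 0.11 (SE) that did not pass (edgeR adjusted p = 0.0682). It passed with the lane code as a covariate (edgeR adjusted p = 0.0400) and without OIR replicate 2 or OIR replicate 5 (lowest edgeR adjusted p = 0.0442). An exon of Tap1 overlaps Psmb9, with which it shares 2.88% of its 50-base runs, and Psmb9 itself did not pass (log2 fold change 0.22, edgeR adjusted p = 0.297).

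Tap2 ran from 62.4 through 99.9 to 112 CPM in OIR libraries, against 62.7, 104 and 118 CPM in nonOIR libraries. The groups covered nearly the same range (log2 fold change -0.09 ± 0.15 SE, edgeR adjusted p = 0.777). Its lanes separated, at 62.4 to 79.4 CPM in lane 2 and 95.4 to 118 CPM in lane 1 (log2 difference -0.63 ± 0.069 SE, edgeR adjusted p = 3.54e-06). The ratio of Tap1 to Tap2 in CPM stood at 1.26 ± 0.327 in OIR libraries and 0.95 ± 0.215 in nonOIR libraries (SD, n = 8 each).

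Class II genes begin with the invariant chain. Cd74 (ENSMUSG00000024610, chr18:60803848-60812652) ran from 89.1 through 113 to 158 CPM in OIR libraries, against 47.4, 76.2 and 120.3 CPM in nonOIR libraries. The ranges overlapped, and the highest nonOIR library, replicate 3, lay above the OIR median. The mean was 120.3 ± 22.3 CPM in OIR and 78.4 ± 24.1 CPM in nonOIR (SD, n = 8 each), or a log2 change of 0.62 ± 0.17 (SE, edgeR adjusted p = 0.0248). Within lane 2 the log2 fold change was 1.03 (edgeR adjusted p = 0.0024), and within lane 1 it was 0.46 (edgeR adjusted p = 0.166). The difference between these effects did not pass (edgeR adjusted p = 0.392). Without OIR replicate 1, the highest library, and nonOIR replicate 8, the lowest, the log2 fold change was 0.47 and no longer passed (edgeR adjusted p = 0.0577).

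H2-Aa and H2-Ab1 encode the alpha and beta chains of the class II molecule I-A. H2-Ab1 ran from 60.3 through 87.8 to 115 CPM in OIR libraries, against 55.0, 71.6 and 87.7 CPM in nonOIR libraries. The means were 89.5 ± 18.1 CPM in OIR and 69.2 ± 10.5 CPM in nonOIR (SD, n = 8 each), and the log2 fold change of 0.37 ± 0.13 (SE) did not pass (edgeR adjusted p = 0.0694). It passed with the lane code as a covariate (edgeR adjusted p = 0.0468) and without OIR replicate 3 or nonOIR replicate 3 (lowest edgeR adjusted p = 0.0224). H2-Ab1 was thus near the threshold on either side.

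H2-Aa varied far more within each group than the other members. It ran from 0.207 through 9.78 to 20.5 CPM in OIR libraries, against 0.042, 4.71 and 17.0 CPM in nonOIR libraries (log2 fold change 0.47 ± 0.88 SE, edgeR adjusted p = 0.798). It was under 1 CPM in OIR replicates 3 and 5 and in nonOIR replicates 1 and 2, and nonOIR replicates 1 and 2 held 1 count each. In OIR it reached 20.5, 19.1 and 20.3 CPM in the 3 libraries of lane 2 (replicates 6, 7 and 8), which were the 3 highest. In nonOIR the highest values were 17.0, 16.0 and 15.6 CPM, in replicates 6, 3 and 7. H2-Eb1, the beta chain of the class II molecule I-E, was under 1 CPM in OIR replicates 3 and 5 and in nonOIR replicates 1, 2 and 8, and it did not pass (8.01 ± 6.88 CPM in OIR and 4.14 ± 4.40 CPM in nonOIR, SD, n = 8 each, edgeR adjusted p = 0.537).

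In the libraries where H2-Aa was low, Cd74 and H2-Ab1 stayed above 50 CPM. In OIR replicate 5, for example, Cd74 had 111 CPM, H2-Ab1 79.4 CPM and H2-Aa 6 counts. In nonOIR replicate 2, Cd74 had 91.0 CPM, H2-Ab1 59.2 CPM and H2-Aa 1 count. The chains of the same molecule were therefore not measured in step across libraries.

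**Figure D2:**
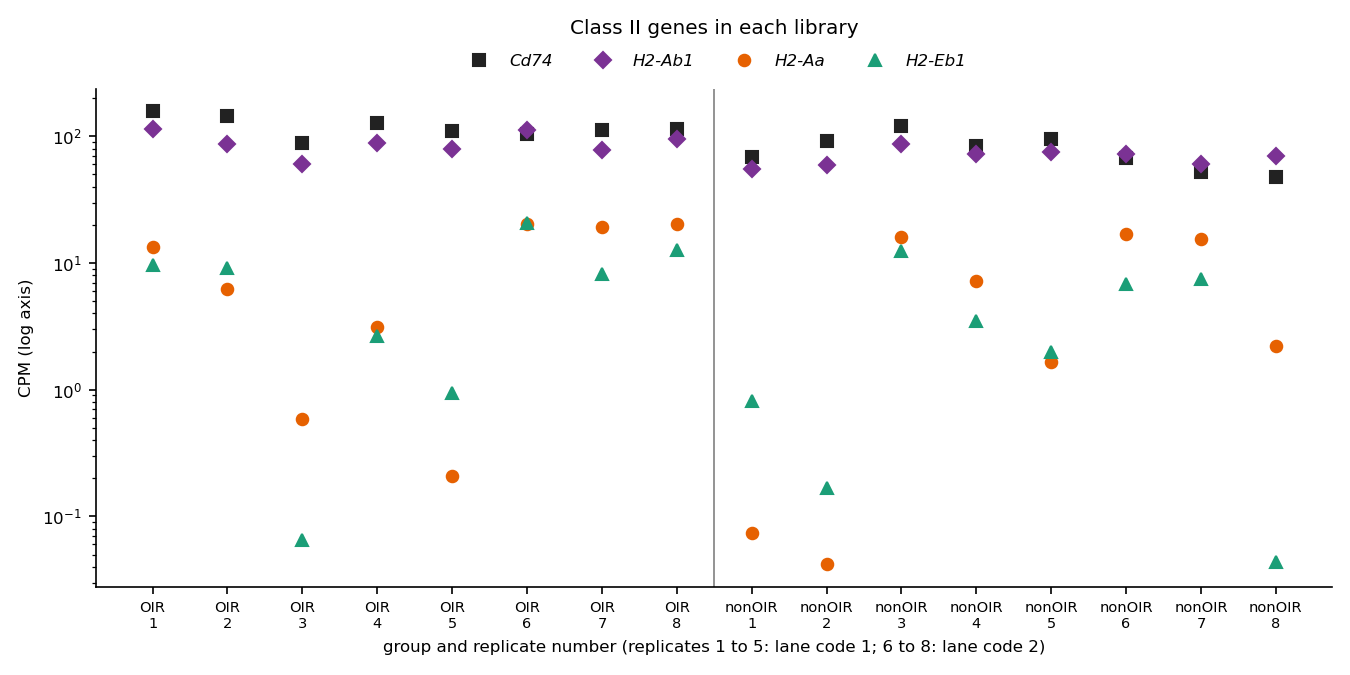
CPM on a log axis of class II genes in each of the 16 libraries, with the OIR replicates left of the nonOIR replicates and replicates 6 to 8 of each group in lane 2. Cd74 and H2-Ab1 stay within 47.4 to 158 CPM, while H2-Aa drops under 1 CPM in OIR replicates 3 and 5 and in nonOIR replicates 1 and 2.

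Markers of border macrophages, which line vessels and meninges and are known to carry class II, moved with this pattern in part. The summed level of the 10 listed genes, all of them detected, ran from 234 to 656 CPM in OIR libraries and from 128 to 432 CPM in nonOIR libraries. Its 3 highest libraries, OIR replicates 6, 7 and 8 at 656, 628 and 650.2 CPM, were also the 3 highest for H2-Aa. In nonOIR the highest were replicate 3 at 432 CPM and replicate 6 at 311 CPM. The lowest in OIR was replicate 3 at 234 CPM, and there the scavenger receptor gene Mrc1 had 2.31 CPM and the coagulation factor gene F13a1 0 counts (both named after their values were seen). By the sum, OIR replicate 5, low in H2-Aa, had 324 CPM, and nonOIR replicate 7, high in H2-Aa, had 172 CPM. In nonOIR replicates 1 and 2, each with 1 count of H2-Aa, Mrc1 had 28.7 and 9.71 CPM and F13a1 12.8 and 1.01 CPM. In nonOIR replicate 7 Mrc1 had 13.6 CPM and F13a1 14.7 CPM. None of the 10 genes passed in edgeR over all libraries, 3 were higher at an unadjusted p under 0.05, and DESeq2 called 2 higher and limma-voom 1. Within lane 2 alone, Stab1, Folr2, Ms4a7, Cbr2, Mrc1, F13a1 and Lyve1 were higher in OIR (edgeR adjusted p from 0.000429 to 0.0499). There 15.4% of all genes passed in either direction. Cd163, Pf4 and Clec12a did not pass in lane 2. In lane 1 the lowest edgeR adjusted p of the list was 0.246, for Stab1. The most abundant of the list were Stab1 and Pf4 (Stab1 188 CPM in OIR and 120.4 CPM in nonOIR, Pf4 77.2 CPM in OIR and 30.2 CPM in nonOIR). Their part in the class II values was not tested. In these bulk samples a change in the number of cells of a type and a change of RNA per cell cannot be told apart.

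H2-DMa, the alpha chain of the H2-DM peptide exchanger (ENSMUSG00000037649, chr17:34119541-34139101), ran from 315 through 391 to 442 CPM in OIR libraries, against 445, 497 and 577 CPM in nonOIR libraries. Every OIR library lay below every nonOIR library. The mean was 383 ± 46.6 CPM in OIR and 502 ± 45.1 CPM in nonOIR (SD, n = 8 each), or a log2 change of -0.39 ± 0.082 (SE, edgeR adjusted p = 0.00516). Within lane 2 it was -0.57 (edgeR adjusted p = 0.00816), and within lane 1 it was -0.26 (edgeR adjusted p = 0.0649). The difference between these effects did not pass (edgeR adjusted p = 0.196), as for every other member. An exon of H2-DMa overlaps Brd2, with which it shares 8.43% of its 50-base runs, and Brd2 had 63.0 CPM in OIR and 65.6 CPM in nonOIR (edgeR adjusted p = 0.905).

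H2-DMa was lower against H2-Ab1 in OIR, though the ranges of this ratio overlapped. The ratio of H2-DMa to H2-Ab1 in CPM stood at 4.44 ± 1.06 in OIR libraries (2.91 to 6.34) and 7.35 ± 0.916 in nonOIR libraries (5.48 to 8.28; SD, n = 8 each). Markers of microglia moved the same way as H2-DMa. The summed level of the 10 listed microglial genes was 38159 to 63417 CPM in OIR libraries and 65173 to 80702 CPM in nonOIR libraries, and 4 of the 10 were lower and 0 higher. Their part in the H2-DMa result was not tested.

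Cd80 (ENSMUSG00000075122, chr16:38455561-38496335) ran from 7.86 through 10.6 to 16.4 CPM in OIR libraries, against 13.7, 19.4 and 22.8 CPM in nonOIR libraries. OIR replicate 2, the highest, was the only OIR library inside the nonOIR range. The mean was 10.8 ± 2.86 CPM in OIR and 18.9 ± 2.94 CPM in nonOIR (SD, n = 8 each), or a log2 change of -0.80 ± 0.16 (SE, edgeR adjusted p = 0.00408). Within lane 2 it was -0.88 (edgeR adjusted p = 0.0356), and within lane 1 it was -0.72 (edgeR adjusted p = 0.105). Cd86, the other CD28 ligand of this pair, averaged 492 ± 78.5 CPM in OIR and 582 ± 62.1 CPM in nonOIR (SD, n = 8 each) and did not pass (log2 fold change -0.24, edgeR adjusted p = 0.121), though it did with the lane code as a covariate (edgeR adjusted p = 0.0366).

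**Figure D3:**
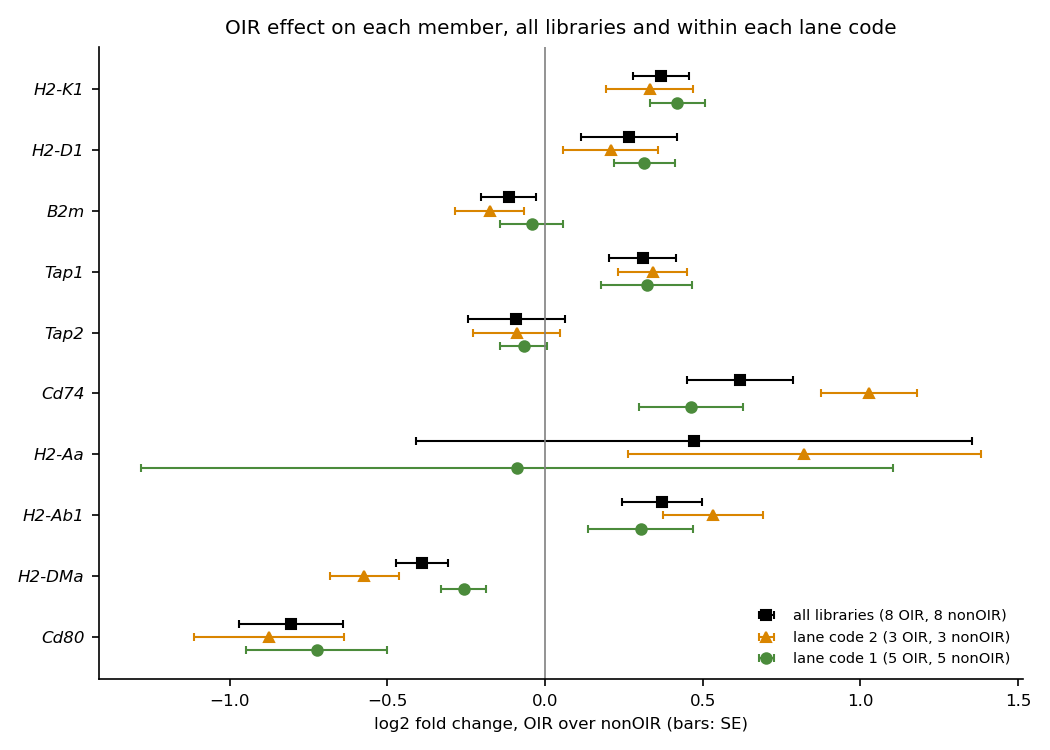
Log2 fold change of each member, OIR over nonOIR, with SE bars, over all libraries and within each lane code. H2-K1 and Cd74 lie above 0 and H2-DMa and Cd80 below 0 in all libraries and in both lanes, and H2-Aa lies at 0.82 in lane 2 and -0.089 in lane 1.

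Within the lanes, 3 members passed in lane 2 (Cd74, H2-DMa and Cd80), where 15.4% of 13085 genes did, and 1 passed in lane 1 (H2-K1), where 3.33% of 12523 genes did. With the lane code as a covariate, 6 members passed (those 4, Tap1 and H2-Ab1), against 17.3% of genes. No member passed the test of a difference in effect between lanes, which 0.496% of genes passed, and 1 member, H2-DMa, had an unadjusted p under 0.05, as 13.1% of genes did. In the authors' deposited table the same 6 members had adjusted p-values under 0.05, 4 higher and 2 lower, where 14.4% of 13718 genes with an adjusted p did. That table gave H2-K1 a log2 fold change of 0.37 (the authors' adjusted p = 0.000884). DESeq2, run on the same counts, called 6 members too, against 12.7% of 15928 genes.

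Levels of different genes were compared per kilobase of merged exon length. In OIR the order was B2m (4338 CPM per kb), H2-D1 (553), H2-K1 (214), H2-DMa (111), Cd74 (71.6), H2-Ab1 (34.8), Tap2 (23.8), Tap1 (19.8), Cd80 (2.92) and H2-Aa (2.74). The ranges of neighbours overlapped for H2-DMa and Cd74, for H2-Ab1 and Tap2, for Tap2 and Tap1, and for Cd80 and H2-Aa. In nonOIR the same order held, at 4699, 460, 165, 146, 46.7, 27.0, 25.4, 16.0, 5.09 and 1.97 CPM per kb. There H2-K1 and H2-DMa overlapped, as did Cd74 and H2-Ab1, H2-Ab1 and Tap2, Tap2 and Tap1, and Cd80 and H2-Aa.

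**Figure D4:**
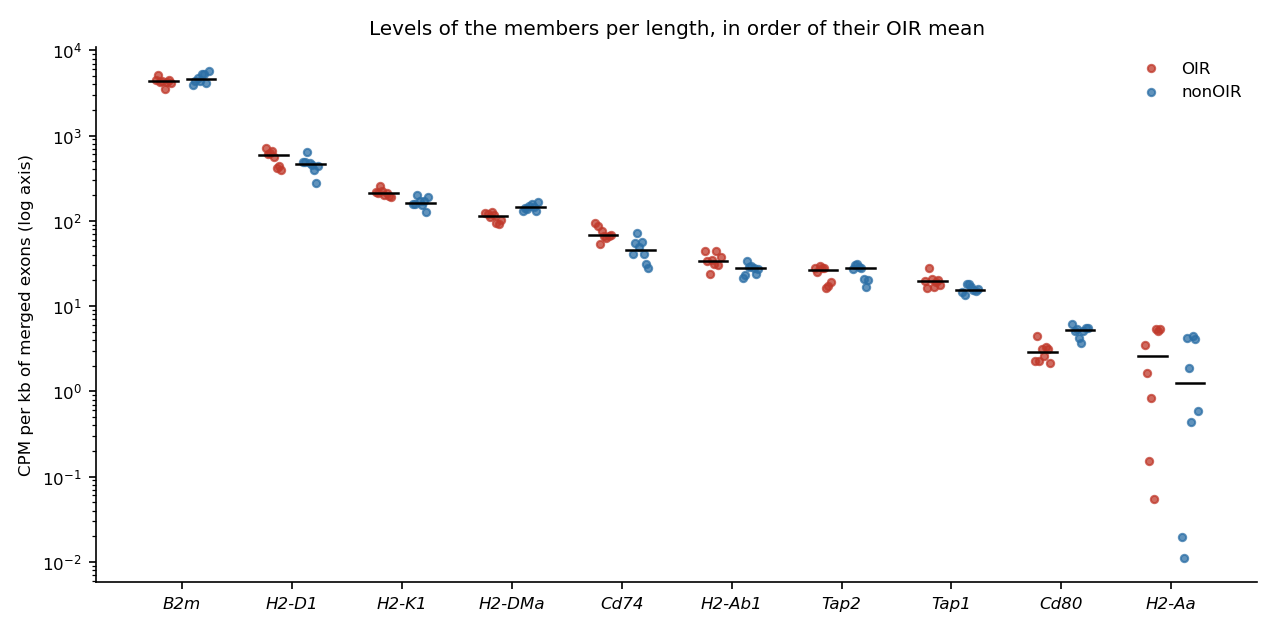
Level of each member in CPM per kb on a log axis, in order of the OIR mean, with 1 point per library and a line at the median, OIR left of nonOIR. B2m stands highest, with means of 4338 CPM per kb in OIR and 4699 in nonOIR, and H2-Aa has the widest range.

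The rest of the pathway was taken from lists of genes by role. Of its 69 genes that are not members, 55 were tested, of which 4 were higher and 6 lower in OIR, against 6.39% and 4.56% of all genes. Among 13 tested class I heavy chains 1 was higher in edgeR, H2-K1 itself, and 0 were lower (median log2 fold change 0.27, against -0.03 over all genes tested). The list also held the class I-like genes Cd1d1, Mr1, Hfe and Fcgrt. At an unadjusted p under 0.05 in edgeR 4 were higher (H2-K1, H2-T22, Mr1 and Fcgrt) and 1 lower (Cd1d1). Of the 50-base runs of H2-T22, 53.5% also occur in transcripts of other genes. DESeq2 called 2 genes of the list higher and 0 lower, and limma-voom 1 higher and 0 lower. Of the 9 genes of class I peptide loading, Tap1 and Tap2 included, none passed in edgeR in either direction (median -0.0060). At an unadjusted p under 0.05 there 2 were higher and 1 lower, DESeq2 called 1 higher and 1 lower, and limma-voom called 0. Of the 5 genes of the immunoproteasome and its activator, 2 were higher (median 0.22). They were the subunits of the PA28 activator, which opens the proteasome. Psme1 averaged 181 ± 20.4 CPM in OIR and 149.9 ± 13.3 CPM in nonOIR (edgeR adjusted p = 0.0350), and Psme2 99.5 ± 18.3 CPM in OIR and 73.0 ± 14.8 CPM in nonOIR (edgeR adjusted p = 0.0355; SD, n = 8 each). Psme1 lost its call when any of OIR replicates 3 and 6 and nonOIR replicates 2, 3, 4, 7 and 8 was left out (highest edgeR adjusted p = 0.0689). Psme2 lost it without any of OIR replicates 6 and 8 and nonOIR replicates 1, 2, 3, 4, 5 and 7 (highest edgeR adjusted p = 0.0693).

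Among 9 tested class II chains and chaperones, 1 was higher (Cd74) and 3 were lower (median -0.13). Besides H2-DMa these were the chains of H2-DO, which is known to restrain H2-DM. H2-Ob ran from 52.6 through 68.7 to 83.9 CPM in OIR libraries, against 82.5, 106 and 124 CPM in nonOIR libraries (log2 fold change -0.59 ± 0.11 SE, edgeR adjusted p = 0.00161). H2-Oa ran from 21.5 through 37.6 to 58.3 CPM in OIR libraries, against 55.5, 70.0 and 82.3 CPM in nonOIR libraries (log2 fold change -0.82 ± 0.18 SE, edgeR adjusted p = 0.00632). The OIR and nonOIR ranges of H2-Ob and of H2-Oa overlapped only at their ends. An exon of H2-Oa overlaps BC051537 on the opposite strand, with which it shares 15.5% of its 50-base runs. How much of the H2-Oa count came from BC051537 was not tested. The alpha chain of the exchanger and both chains of its modulator were thus lower in OIR while Cd74 was higher. The beta chains of the exchanger did not pass. H2-DMb1 averaged 134 CPM in OIR and 161 CPM in nonOIR (log2 fold change -0.26, edgeR adjusted p = 0.102). H2-DMb2 averaged 11.6 CPM in OIR and 12.6 CPM in nonOIR (-0.13, edgeR adjusted p = 0.724). Within lane 1 H2-DMb1 stood at -0.074 and H2-DMb2 at 0.17. Within lane 2 they stood at -0.49 and -0.64, and there H2-DMb1 passed (edgeR adjusted p = 0.0302).

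Of 6 genes of class II processing 1 was higher and 2 were lower (median -0.062). Ifi30, a lysosomal thiol reductase that unfolds antigens, ran from 205 through 234 to 267 CPM in OIR libraries, against 116, 167 and 183 CPM in nonOIR libraries, with no overlap (log2 fold change 0.54 ± 0.097 SE, edgeR adjusted p = 0.00173). March1, a ubiquitin ligase that removes class II and CD86 from the surface, averaged 163 ± 36.2 CPM in OIR and 241 ± 16.3 CPM in nonOIR (SD, n = 8 each, edgeR adjusted p = 0.00424). Ctss, the cathepsin that trims Cd74, averaged 18754 ± 4389 CPM in OIR and 27180 ± 2491 CPM in nonOIR (SD, n = 8 each, edgeR adjusted p = 0.00752). Ifi30 passed in both lanes (edgeR adjusted p = 0.00844 in lane 2 and 0.0198 in lane 1), while March1 and Ctss passed in lane 2 and not in lane 1 (edgeR adjusted p = 0.0649 and 0.0874 in lane 1).

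Of 12 tested transcription factors of MHC genes, 0 were higher and 1 was lower in edgeR (median -0.15). At an unadjusted p under 0.05 there 1 was higher and 3 lower, DESeq2 called 0 higher and 3 lower, and limma-voom called 0. The gene called in edgeR was Irf2, an interferon regulatory factor, at 79.1 ± 18.4 CPM in OIR and 111 ± 24.9 CPM in nonOIR (SD, n = 8 each, edgeR adjusted p = 0.0462). Irf2 lost its call on leaving out any one of 11 libraries, OIR replicates 3 to 8 and nonOIR replicates 1 to 5 (highest edgeR adjusted p = 0.101), and it did not pass with limma-voom (adjusted p = 0.0526). Ciita, the master regulator of class II transcription, was too low to test. It had 120 counts (4.77 CPM) in OIR replicate 1 and at most 0.58 CPM in every other library. OIR replicate 1 was also the highest OIR library for Cd74 and H2-Ab1. H2-Aa and H2-Eb1 were instead highest in OIR replicate 6 (20.5 and 20.8 CPM), where Ciita had 0 counts. Nlrc5, the regulator of class I transcription, averaged 4.34 ± 4.05 CPM in OIR and 3.02 ± 2.09 CPM in nonOIR (SD, n = 8 each, edgeR adjusted p = 0.657).

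Of 11 tested costimulatory and coinhibitory ligands, 1 was higher and 2 were lower (median -0.12). Cd274 (PD-L1), which restrains T cells through PD-1, averaged 19.3 ± 3.84 CPM in OIR and 12.6 ± 4.05 CPM in nonOIR (SD, n = 8 each, log2 fold change 0.62, edgeR adjusted p = 0.0464). Cd274 lost its call on leaving out any one of 11 libraries, OIR replicates 1, 2, 5, 6 and 7 and nonOIR replicates 1, 2, 3, 5, 7 and 8 (highest edgeR adjusted p = 0.0859). Vsir (VISTA), also an inhibitor of T cells, ran from 1172 through 1591 to 1894 CPM in OIR libraries, against 1934, 2034 and 2238 CPM in nonOIR libraries, with no overlap (log2 fold change -0.44 ± 0.095 SE, edgeR adjusted p = 0.00641). Cd80, Cd274 and Vsir, ligands of 3 different receptors, thus did not move one way.

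**Figure D5:**
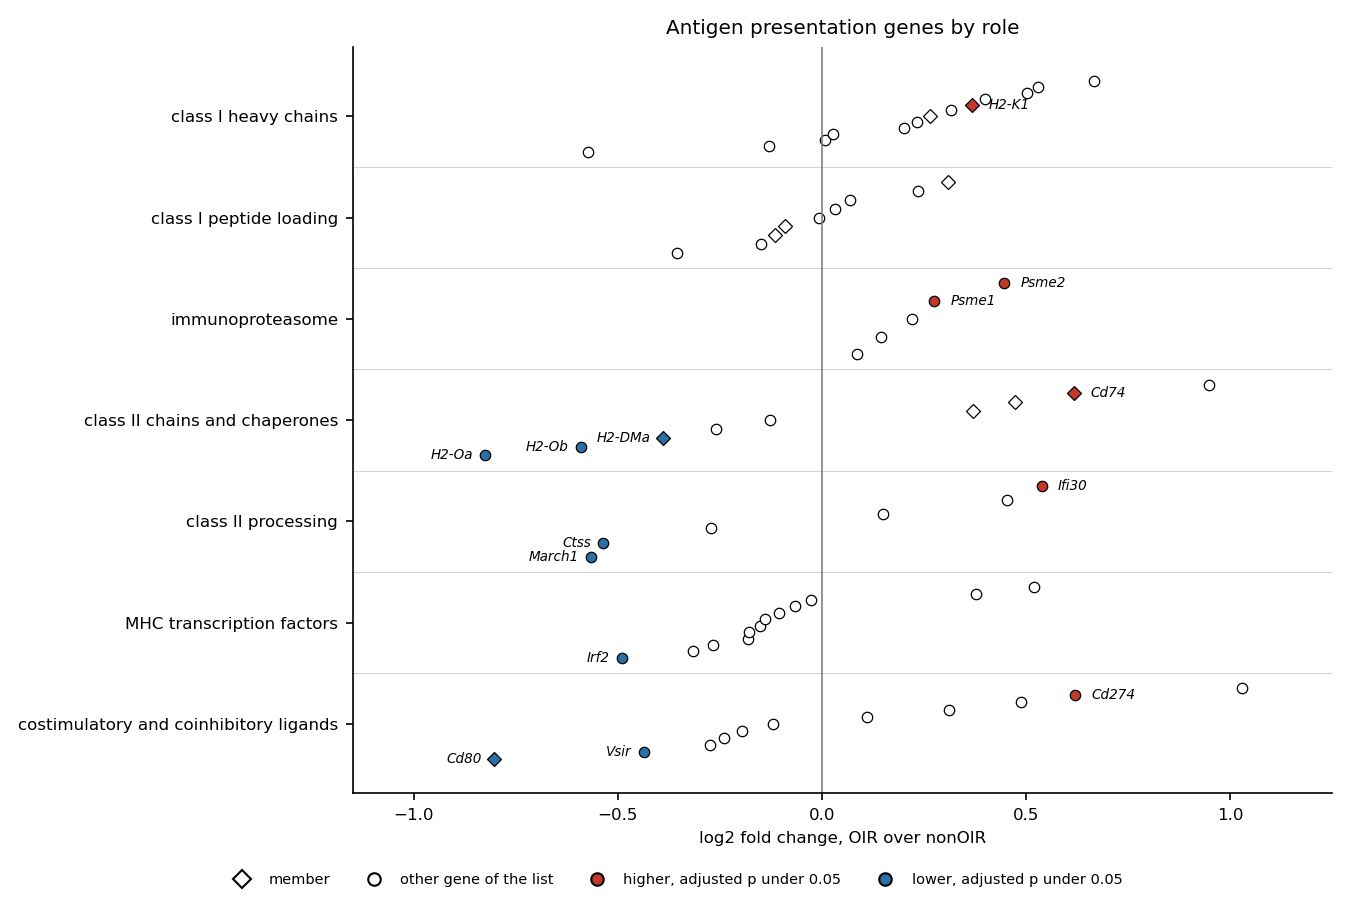
Log2 fold change, OIR over nonOIR, of each tested gene of the antigen presentation lists, one row per role, with genes that passed at an adjusted p under 0.05 filled and named and members drawn as diamonds. Class II chains and class II processing hold named genes on both sides of 0, with Cd74 and Ifi30 above and H2-DMa, H2-Oa, H2-Ob, March1 and Ctss below.

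Markers of other cells that present antigen or could pass the gate were measured in the same libraries. The 10 dendritic cell genes summed to 43.1 to 77.8 CPM in OIR and 26.04 to 69.0 CPM in nonOIR, led by Itgax (43.7 CPM in OIR and 29.3 CPM in nonOIR) and Zbtb46 (7.94 and 7.52 CPM), with Cd209a at 0 or 1 count, and 0 of 5 tested passed in edgeR, with 1 higher at an unadjusted p under 0.05, by DESeq2 and by limma-voom. Monocyte genes summed to 27.2 to 76.7 CPM in OIR and 8.65 to 22.3 CPM in nonOIR, without overlap, with Fn1 the most abundant in OIR. Of 5 tested monocyte genes 4 were higher at an unadjusted p under 0.05 and by DESeq2, and 2 by limma-voom. Ccr2 was not among those at an unadjusted p under 0.05 (5.22 CPM in OIR and 5.44 CPM in nonOIR, edgeR adjusted p = 0.935). In edgeR 1 was higher, Fn1 (22.1 CPM in OIR and 3.21 CPM in nonOIR, edgeR adjusted p = 0.00156). Itgal had 9.82 CPM in OIR and 3.09 CPM in nonOIR, and the marker Ly6c2 was at 0 in all libraries. The cells had been sorted as Ly6C-, so the 0 of Ly6c2 cannot show whether monocyte-derived cells were present. B cell genes summed to 549 to 764 CPM in OIR and 566 to 756 CPM in nonOIR, nearly all of it Ighm and Cd79b. T and NK cell genes summed to at most 1.62 CPM in OIR and 2.10 CPM in nonOIR (Cd4 0.463 and Lck 0.258 CPM in OIR, Cd4 0.368 and Lck 0.162 CPM in nonOIR), with Cd3e, Cd3d, Nkg7 and Ncr1 at 0. Rod photoreceptor genes, among them Gnat1, summed to 44.2 to 449.9 CPM in OIR and 71.5 to 549.6 CPM in nonOIR. Endothelial genes, among them Pecam1 and Kdr, summed to 19.3 to 43.9 CPM in OIR and 23.9 to 47.1 CPM in nonOIR. None of the 3 B cell, 10 rod and 5 endothelial genes tested passed in edgeR. At an unadjusted p under 0.05, and by DESeq2 and limma-voom, 1 endothelial gene was higher and no B cell or rod gene was called. The part of the monocyte genes in the rises of Cd74 and H2-K1 was not tested.

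Across the 16 libraries, after the mean of each group was subtracted, the genes whose log2(CPM + 1) ran most like that of H2-K1 were Eps8l1, Lgals3bp and Gm5141 (Pearson r = 0.765, 0.747 and 0.739, of 12495 genes compared). Lgals3bp averaged 710 ± 252 CPM in OIR and 467 ± 106 CPM in nonOIR (SD, n = 8 each, edgeR adjusted p = 0.0331). For Cd74 the most alike were Kcnma1, Ctsw and Pnpla7 (r = 0.84, 0.823 and 0.81), none of which passed between the groups (edgeR adjusted p = 0.509, 0.719 and 0.996). These correlations are descriptions of libraries that share depth and lane.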

How the data were processed

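The members and the gene lists were chosen with earlier results of these data known. Per the labels' protocols, cDNA was amplified with a low-input kit that does not mark strand, and reads were single and 50 bases long. No molecular identifiers were used, so reads copied by PCR cannot be counted as separate molecules. Per the submitters' processing notes, the genome build was mm10 and the tools, given without roles, included featureCounts 1.6.2 and STAR 2.6.0b-1, besides DESeq2 2.11.40.2 and FastQC 0.72. Which annotation was counted is not given in the sources used. Per the file headers, the authors deposited raw counts, 1 column per library. The authors' normalized signal columns and base mean, their log2 fold change and its standard error, their Wald score and their p-values were deposited in the same table. Only the authors' log2 fold changes and adjusted p-values are quoted, and all tests used the counts.

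Groups came from the labels and the lane code from the description label. In R 4.3.3, edgeR 4.0.16 removed low genes (filterByExpr), scaled libraries by TMM and fitted the group as the only term (robust glmQLFit, two-sided glmQLFTest). Benjamini-Hochberg adjustment ran over 12496 genes with a threshold of 0.05. The biological coefficient of variation was 40.3%. The test was checked on simulated counts. Named genes were all 10 members, up to 4 genes with the lowest p among those past the threshold in each pathway list, Ciita, Nlrc5, H2-Eb1 and Cd86, the 2 most abundant genes of each cell type list, and the 3 genes most like H2-K1 and Cd74. Psmb9, Brd2, Cd209a, Ly6c2, Ccr2, Cd3e, Cd3d, Nkg7, Ncr1, Mrc1, F13a1, H2-DMb1, H2-DMb2 and H2-Q6 were added after values were seen. So were Folr2, Ms4a7, Cbr2, Lyve1, Cd163, Clec12a, Cd1d1, Mr1, Hfe, Fcgrt, H2-T22 and BC051537. Values of some single genes that this rule names are left out. Positions and exon lengths come from GENCODE M21, which holds 54495 of the identifiers, and 50-base runs were compared over its transcripts. Alternatives covered scaling, the filter, lane, replicate number, DESeq2 1.42.0, limma-voom (limma 3.58.1) and the omission of libraries. The same alternatives for pathway genes and the test of levels between lanes were chosen after seeing the data. Within each group every pair of libraries differed by more than sampling noise (lowest chi-square per gene 15.3).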

Additional observations from a re-analysis of the deposited data

Results flagged for a closer look

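In 23 genes, the members and the pathway genes named by rule, each group of 8 libraries was screened for a library far from the rest by Dixon's ratio at the 95% level. Of 46 groups screened 4 held one, where chance gives about 1 in 20. Of these, 3 were in OIR replicate 3, which was the highest OIR library for Tap1 at 154 CPM, for the proteasome activator gene Psme1 at 227 CPM and for the class I regulator gene Nlrc5 at 13.2 CPM. Without OIR replicate 3 Psme1 no longer passed, and Tap1 did not pass with or without it. The other was nonOIR replicate 4, the lowest nonOIR library for March1 at 205 CPM.

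March1 was also the one among these genes whose OIR effect differed between lanes. Its log2 fold change was -0.97 in lane 2 and -0.33 in lane 1, a difference of -0.67 (edgeR's quasi-likelihood test of the interaction, Benjamini-Hochberg adjusted p = 0.0312). What differed between the lanes besides the code was not tested.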

How the results depend on the processing

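H2-K1, H2-DMa and Cd80 kept their direction in every setting. Each lost its call in 1 setting only, H2-K1 in lane 2 alone and H2-DMa and Cd80 in lane 1 alone. Over all genes, 364 were lower with library size alone, 343 with no filter and 884 with DESeq2. With the lane code as a covariate 2159 changed, 1210 higher and 949 lower. In lane 1 alone 417 changed, 276 higher and 141 lower, and in lane 2 alone 1260 were higher. Members higher in OIR numbered 4 with library size alone, the lane covariate or DESeq2, 1 in each lane alone and 1 without OIR replicate 1 and nonOIR replicate 8. In lane 1, 1 member changed and 0 were lower. Pathway genes that changed numbered 20 with the lane covariate, 5 in lane 1 and 16 with the replicate block, against 10. H2-Aa turned to -0.089 in lane 1 (edgeR adjusted p = 0.984). The causes were not tested.

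Same-numbered OIR and nonOIR libraries correlated over 0.1 in 4 of 8 pairs, and 2 of 8 OIR libraries correlated best with their own number, so the numbers were not taken to pair them. A replicate block gave 1679 changed genes and 5 members, with Tap1 passing at 0.30 (edgeR adjusted p = 0.0265).

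Leaving out single libraries gave 935 to 1556 changed genes, 582 to 908 higher and 353 to 648 lower, 4 to 5 members changed, 2 to 3 higher and 2 lower, and 6 to 12 pathway genes. Library size alone moved the median of all genes by 0.07, and upper-quartile scaling gave 675 higher and 647 lower. Precision at low levels limits H2-Aa, H2-Eb1, Nlrc5 and Ciita.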

Other observations

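Genes whose promoters hold the spaced X2 core and Y box were also followed beyond the MHC lists, a set chosen after the promoters were read. Of 47 such genes 34 were tested, of which 2 were higher in OIR and 0 lower, against 10.9% of all genes in either direction. They were H2-K1 and Nasp, a histone chaperone, which averaged 32.0 ± 7.18 CPM in OIR and 21.4 ± 5.45 CPM in nonOIR (SD, n = 8 each, log2 fold change 0.58, edgeR adjusted p = 0.0371). Of 9 genes with the kappaB site 5 were tested, and 1 was higher, H2-K1, against 6.39% of all genes. H2-D1 and H2-Q6 carry that site too and did not pass. The promoter of H2-K1 was among those read before the sets were chosen, so its call says nothing about the other genes of either set.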
